A study of Mus musculus with 10 samples.

Results

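The cytoplasmic ribosomal protein genes were followed through 10 single-neuron transcriptomes of the preBötzinger complex (preBötC), the brainstem site that generates the inspiratory rhythm. Members were chosen by symbol: Rpsa, and every gene named Rpl, Rps or Rplp with a number, leaving out the Rps6k kinases and the entries marked as pseudogenes (-ps). The rule found 94 genes of the 55367 in the files. Of these, 77 are the canonical ribosomal proteins, 46 of the large subunit and 31 of the small subunit. The other 17 are paralogs, near-identical copies and 1 gene, Rps19bp1, that carries the name of a ribosomal protein because its product binds one.

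The cytoplasm of each neuron was drawn into a patch pipette after its discharge had been recorded, and each library came from 1 neuron. All 10 neurons were inspiratory preBötC neurons of mouse pups between P0 and P3. The Type-1 group held 4 neurons, which were labelled as such for their long inspiratory drive latency and delayed excitation: sample 4 from a WT mouse at P3, and samples 5 (P0), 6 (P3) and 7 (P3), which were Dbx1-derived. The Type-2 group was a single Dbx1-derived neuron, sample 1, at P0, with short latency and a sag potential. The Unknown group held 5 neurons of WT mice that were not classified: samples 2 (P2), 3 (P0), 8 (P0), 9 (P2) and 10 (P1). Dbx1-derived neurons came from the cross of Dbx1cre with Ai148 mice, in which Cre recombination in the Dbx1 lineage turns on the calcium indicator GCaMP6f, on a C57Bl/6J or mixed C57Bl/6J and CD1 background. The WT neurons came from CD-1 mice, so line, background and indicator cannot be told apart. The labels name no animal for any neuron, and p-values therefore measure only the spread between these libraries.

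A ribosome is built from a small subunit, which reads the messenger RNA, and a large subunit, which joins the amino acids. Each canonical protein is present about once per ribosome apart from the acidic stalk proteins, and cells keep the synthesis of the set in step, largely at the level of translation, through a run of pyrimidines at the very start of these messenger RNAs. Ribosomal protein messages are short, abundant and found in all cell types, and most have processed copies scattered through the genome.

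The start of the messenger RNA is shown first because it is the feature the members share by sequence. Each line holds 30 bases from RefSeq on GRCm38.p6, 15 before the annotated start of transcription and 15 from it on, and capitals mark a C within 5 bases of the start that is followed by at least 4 further C or T, with the run that follows it. Pyrimidines in lower case just before the capitals can continue the run upstream, as in Rpl7a. Rpl27a, Rpl7a and Rpl28 are large-subunit genes that were well expressed in all but 1 library, Rps10 and Rpl13a were among the 3 genes with the lowest levels of all, and Rpl24 and Rplp0 are shown as genes whose annotated start has no such run.
Rpl27a (chr7:109519180-109519209, plus strand): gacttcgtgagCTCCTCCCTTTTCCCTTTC
Rpl7a (chr2:26910792-26910821, plus strand): attccctcttCTTTCTTTCTCCagcagccg
Rpl28 (chr7:4792950-4792979, plus strand): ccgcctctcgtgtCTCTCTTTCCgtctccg
Rps10 (chr17:27635230-27635259, minus strand): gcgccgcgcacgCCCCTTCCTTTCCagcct
Rpl13a (chr7:45128731-45128760, minus strand): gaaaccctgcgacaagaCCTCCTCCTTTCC
Rpl24 (chr16:55966260-55966289, plus strand): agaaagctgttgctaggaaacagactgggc
Rplp0 (chr5:115559452-115559481, plus strand): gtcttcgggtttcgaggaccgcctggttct

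Of the canonical members, 57 had an annotated start in the RefSeq table. Such a C, read on the sense strand only, lay within 5 bases of the start in 27 of the 57 (47.4%), against 5718 of all 27025 genes with a start (21.2%). It was the annotated start base itself in 13 of 57 members (22.8%), against 813 of 27025 genes (3.01%). Annotated starts can lie some bases away from the start a neuron uses, so a window without the run says only that these letters are not in it.

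Together the 94 genes took 2.21 ± 2.08% (SD, n = 10) of the fragments counted on genes. The share was 1.28% in sample 1, 2.63% in sample 2, 3.86% in sample 3, 7.47% in sample 4, 0.981% in sample 5, 0.977% in sample 6, 1.07% in sample 7, 1.82% in sample 8, 1.13% in sample 9 and 0.904% in sample 10. Sample 4 stood highest, samples 3, 2 and 8 followed, and the other 6 neurons lay close together near 1%. Library totals ran from 21392146 to 36629393 fragments. At this depth the exact 95% binomial interval of the highest share was 7.46 to 7.48% and that of the lowest 0.900 to 0.907%, which cover counting error only because amplified cDNA fragments are not independent molecules. A share cannot separate more ribosomal protein RNA from less RNA of other genes.

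Markers of other cell types moved with this share. The summed level of 10 astrocyte markers was 2310.5 to 6643 FPKM (fragments per kilobase of gene length and per 1000000 counted fragments) in samples 2, 3, 4 and 8, and 151 to 779 in the other 6, so that the 4 libraries with the highest ribosomal protein shares were the 4 with the highest astrocyte sums. Of these markers, 8, 8 and 10 reached 1 FPKM in samples 2, 3 and 8, but only 4 in sample 4, like the 2 to 5 elsewhere. The astrocyte sum of sample 4 thus rests on few of the markers. Aqp4 and Gja1 were at 0 in sample 5, Gja1 in samples 6, 9 and 10, and Gfap in samples 3, 6, 7, 9 and 10. The sum of 8 microglia markers was 16720.5 FPKM in sample 4 and 28.5 to 2342 elsewhere. All 8 microglia markers reached 1 FPKM in samples 2 and 4, whereas Csf1r was at 0 in samples 7, 9 and 10. The sum of 8 neuron markers was 58.4 FPKM in sample 4 and 761 to 4670 in the other 9 libraries. Of these neuron markers 6 reached 1 FPKM in sample 4, as in sample 1, and 7 or 8 did elsewhere. Sample 4 thus held most of the neuron markers, but at a low summed level, and results that rest on it are given with and without it. Oligodendrocyte lineage markers summed to 0.00824 to 337 FPKM, with Mog at 0 in all libraries but sample 5, and endothelial markers to 0 to 6.82 FPKM. What part these cells have in the ribosomal protein levels was not tested. Without sample 4 the mean share was 1.63 ± 1.01% (SD, n = 9).

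**Figure D1:**
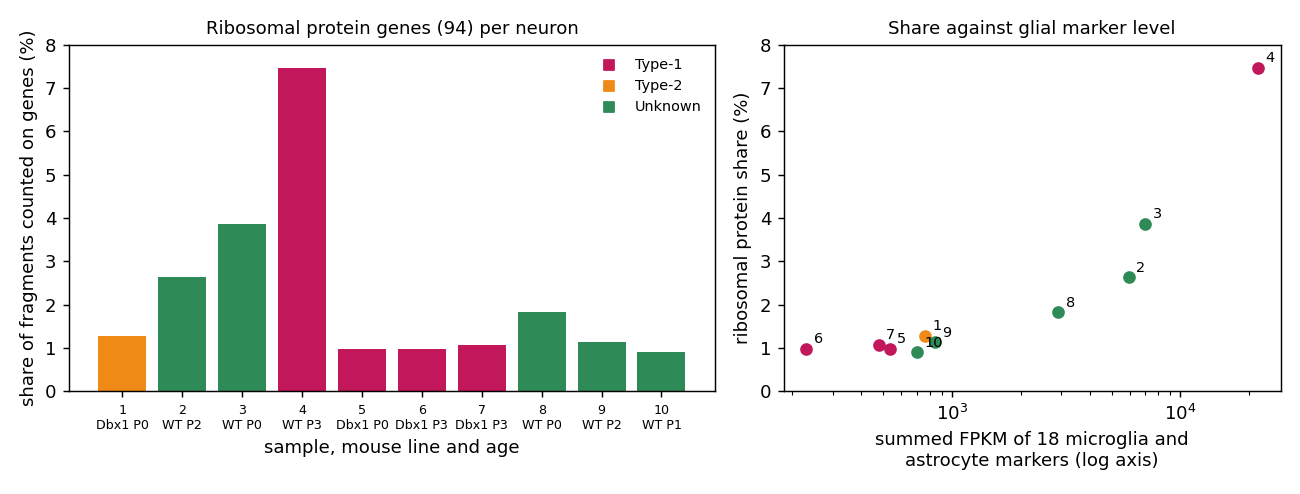
Left, percent of gene-assigned fragments on the 94 ribosomal protein genes in each neuron, 1 bar per library, coloured by electrophysiological type, with line and age below. Right, the same percent against the summed FPKM of the microglia and astrocyte markers on a log axis, 1 numbered point per neuron. Sample 4 lies alone at 7.47%, and samples 3, 2 and 8 are next on both axes.

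The same 4 libraries led in the level of a typical member. The median FPKM over the 77 canonical genes was 60.5 in sample 1, 130 in sample 2, 205 in sample 3, 419 in sample 4, 50.1 in sample 5, 61.3 in sample 6, 59.9 in sample 7, 93.4 in sample 8, 71.1 in sample 9 and 50.7 in sample 10. Sample 4 was 8.38 times the lowest library. On the log2(FPKM + 1) scale the mean of these medians was 6.54 ± 1.00 (SD, n = 10). Across the 10405 genes detected in 7 or more neurons the median was 0.203 to 8.66 FPKM and ran in another order: it was 0.203 in sample 3 and 0.225 in sample 1, the lowest libraries, and 8.66 in sample 8. Samples 1, 2, 3 and 4 had 0.203 to 1.62 FPKM and 46.3 to 57.2% of these genes under 1 FPKM, and the other 6 had 3.47 to 8.66 FPKM and 22.8 to 42.9%. They include the 3 libraries with the highest ribosomal protein shares and sample 1, with the most dropout among members. By the account of the authors these libraries had the least cDNA, whose part in the values here was not tested. The percentile of the canonical median among those genes was 87.0 to 98.1, so ribosomal protein genes were among the abundant genes of every library.

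Most members took part in this. Of the 77 canonical genes, 70 were highest in sample 4, and in 42 of them sample 4 was at least 2 times the next library. All 77 had their highest FPKM in sample 2, 3, 4 or 8. The same counts were not made over all genes, so they do not show a trait particular to this set. Mean FPKM over the 10 neurons was 200 or more for 20 genes, 100 to under 200 for 28, 50 to under 100 for 16, 10 to under 50 for 10 and under 10 for 3.

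The most abundant member by mean log2(FPKM + 1) was Rps3a1, a small-subunit protein, on chromosome 3. Its level was 459 FPKM in sample 1, 515 in sample 2, 1098 in sample 3, 1393 in sample 4, 154 in sample 5, 263 in sample 6, 339 in sample 7, 338 in sample 8, 343 in sample 9 and 176 in sample 10. Rplp0, the base of the acidic stalk that recruits elongation factors, had 154 FPKM in sample 5 as its lowest and 1248 in sample 4 as its highest value, with 1239.5 in sample 3. Rpl4, a large-subunit protein that lines the exit tunnel, ran from 168 to 844 FPKM and was highest in sample 3. Rplp1, another stalk protein, had the widest absolute range of these in FPKM, from 121 in sample 1 to 2417 in sample 4. Rpl36, a large-subunit protein, ran from 98.3 FPKM in sample 1 to 1966 in sample 4.

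Rpl3, whose product lies near the centre where peptide bonds form, varied least over the neurons (SD 0.54 on the log2(FPKM + 1) scale). Its level was 105, 130, 289, 239, 159, 169, 173, 191, 154 and 78.8 FPKM in samples 1 to 10. The median SD of the canonical genes was 1.20 on this scale. Rpl4 (0.79), Rpl7 (0.84) and Rps15 (0.87) also varied little, and Rpl24 (0.57) did so at 0.573 to 4.42 FPKM, where the added 1 narrows the spread. The widest SDs were those of Rps4x (2.23), Rps21 (2.15), Rpl7a (2.11), Rpl28 (2.08) and Rpl6 (2.06), and each of these 5 genes was close to 0 in sample 1 and well expressed in the other 9.

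How evenly the FPKM of a library was spread over the 77 genes was measured by Pielou evenness. This index, the Shannon entropy of the shares divided by its maximum, was 0.863 in sample 1, 0.926 in sample 2, 0.907 in sample 3, 0.920 in sample 4, 0.924 in sample 5, 0.927 in sample 6, 0.933 in sample 7, 0.920 in sample 8, 0.924 in sample 9 and 0.928 in sample 10, where 1 would be equal levels. Sample 1 was the least even and sample 3 the next, while sample 4, with the highest level, lay among the others. The mean was 0.917 ± 0.0203 (SD, n = 10), while 1 minus the Gini coefficient, another index, averaged 0.541. The single highest gene held 4.19 to 8.71% of the canonical FPKM, and the 10 highest held 33.7 to 46.8%, both largest in sample 1.

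Which gene led differed between libraries. Rplp0 led in samples 2, 3 and 10, Rps3a1 in samples 7 and 9, Rplp1 in samples 4 and 8, Rpl4 in sample 5, Rpl36 in sample 6 and Rpl41 in sample 1. Rpl41 encodes the smallest ribosomal protein, a peptide of few residues. It stood at 621 FPKM in sample 1, 549 in sample 2, 547 in sample 3, 1197 in sample 4, 97.2 in sample 5, 110 in sample 6, 96.9 in sample 7, 223 in sample 8, 142 in sample 9 and 138 in sample 10. The summed FPKM of large-subunit genes was 1.40 to 1.77 times that of small-subunit genes, a narrow range beside that of the level.

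Ranked by FPKM, the 77 genes were alike across libraries. Spearman's rho between 2 neurons over these genes was 0.705 to 0.913 (median 0.856) for the 36 pairs without sample 1, and 0.593 to 0.727 (median 0.676) for the 9 pairs with it. These values are across genes, which share gene length and sequence content and are not independent replicates.

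The levels within a library depended on the gene lengths used for the FPKM. The lengths in the files equalled the union of all annotated exons in GENCODE M21 for all 77 genes, with a median of 1781 bases. The principal transcript of the same genes had a median of 780 bases, and the file length was a median of 2.06 and up to 7.18 times as long (Rpl35a). Within a library FPKM ran against the file length with a Spearman's rho of -0.564 to -0.306 over the 77 genes. When the counts were divided by the principal transcript instead, and set against its length, rho was -0.395 to -0.0463. Each level was set against the length that divided it, so a negative rho is partly built in. Rpl22, whose length ratio of 6.14 was the largest after Rpl35a, lies near the extreme. Its mean was 23.3 FPKM with the file length and 143 per kilobase of principal transcript.

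The stalk, the 5S particle and the tunnel exit are parts of the large subunit with roles of their own, and each summed level was highest in sample 4. The summed FPKM of the stalk genes Rplp0, Rplp1 and Rplp2 was 363 in sample 7, the lowest, and 3939 in sample 4. Rpl5 and Rpl11, which bind 5S ribosomal RNA and also hold back the p53 regulator Mdm2, summed to 44.5 FPKM in sample 9 and 430 in sample 4. In sample 1 this pair was unequal, with Rpl5 at 170 and Rpl11 at 22.0 FPKM, while in sample 4 they were at 187 and 243. The 8 tunnel-exit genes, at which the nascent chain leaves the ribosome, summed to 430 FPKM in sample 6 and 4130 in sample 4.

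Dropout was rare. Of the 770 gene-by-neuron values of the canonical genes, 27 were under 1 FPKM and 1 was 0, Rpl13a in sample 3, where the limit that a count of 0 allows is 3 counts or 0.0963 per 1000000. Under 1 FPKM were 10 genes in sample 1, 2 in each of samples 2, 3, 5, 7 and 8, 3 in samples 6 and 10, 1 in sample 9 and 0 in sample 4. Sample 1 held 10 of the 27 values. The mean was 2.7 ± 2.71 genes (SD, n = 10), and thinning all libraries to the smallest total gave 2.6. All 10 neurons had 1 FPKM or more for 65 of the 77 genes.

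In each library 0 to 13.0% of the canonical ribosomal protein genes were under 1 FPKM, 7.45 to 21.3% of all 94 members, and 22.8 to 57.2% of the 10405 genes detected in 7 or more neurons. For 84 nuclear genes of the respiratory chain and ATP synthase, which power the same cells and whose median level was 50.3 to 160 FPKM, the range was 10.7 to 22.6%. For 78 mitochondrial ribosomal protein genes, with a median level of 0.323 to 25.5 FPKM, it was 3.85 to 56.4%, and in sample 10 it was 3.85% against 3.90% for the cytoplasmic set. Sample 1 had the highest share of genes under 1 FPKM in all of these groups, and samples 2 and 3 lost 29.5 and 30.8% of the mitochondrial ribosomal protein genes but 2.60% of the cytoplasmic ones. The levels of the groups differ, and how far level sets these shares was not tested.

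**Figure D2:**
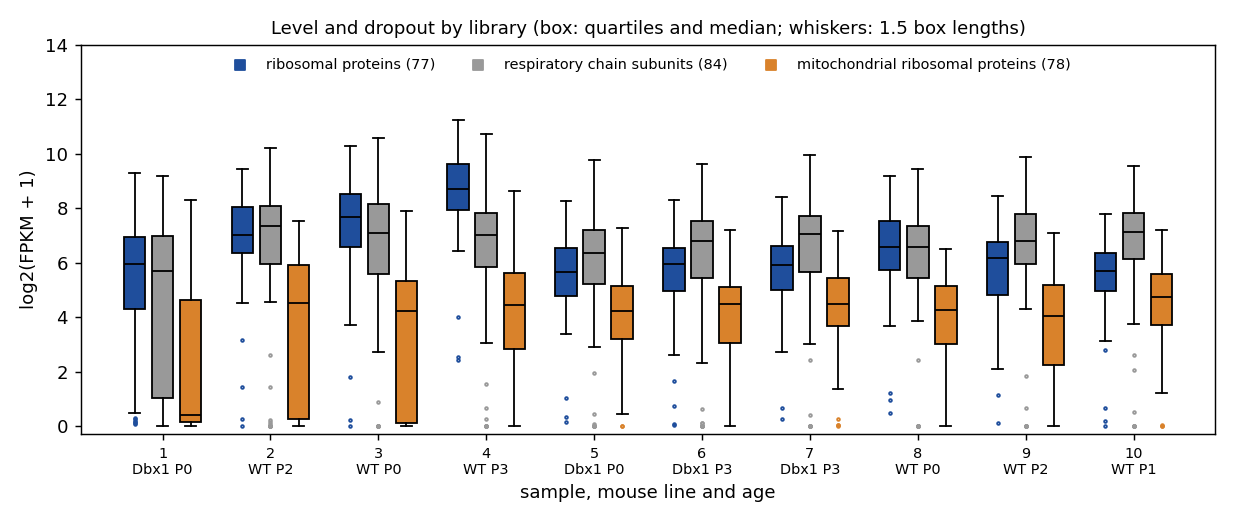
Level as log2(FPKM + 1) of the canonical ribosomal protein genes, the respiratory chain genes and the mitochondrial ribosomal protein genes in each library, as boxes of the quartiles with the median, whiskers to 1.5 box lengths and single points beyond. The median of the ribosomal protein boxes is lowest in sample 5, at 50.1 FPKM, and highest in sample 4, at 419 FPKM. In sample 1 it is 60.5 FPKM, while the mitochondrial ribosomal protein box of sample 1 has its median at 0.323 FPKM.

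In sample 1, the Type-2 neuron, 8 canonical genes were under 1 FPKM that were at 5.99 FPKM or more in all other neurons. They were Rpl6, Rpl7a, Rpl27a and Rpl28 of the large subunit and Rps4x, Rps13, Rps15a and Rps21 of the small subunit. Their counts in sample 1 were 1 to 29 and made up 0.00542 to 0.0465% of what the other libraries held together. Rps21 had 1 fragment (0.0577 FPKM) in sample 1 and 25.2 to 271 FPKM elsewhere. Rpl6 had 27 fragments (0.402 FPKM) there and 32.8 to 259 FPKM elsewhere. Rpl22, a protein that also binds viral and cellular RNA, was the only other canonical gene under 1 FPKM in a single neuron: it had 5 fragments (0.0545 FPKM) in sample 6 and 3.33 to 84.1 FPKM in the other neurons. Rack1, a small-subunit scaffold protein that the symbol rule does not reach, was at 0.201 FPKM in sample 1 and 15.8 to 147 elsewhere. Fau, whose product is processed to a small-subunit protein, was at 97.9 FPKM in sample 1, within its range of 88.5 to 906 FPKM.

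The other 18 low values belonged to Rps10, Rpl13a and Rpl24, which were low in nearly every neuron. Rps10, a protein of the head of the small subunit, was at 0.142, 0.215, 0.181, 15.1, 0.118, 0.0412, 5.61, 0.407, 0.0784 and 0.0142 FPKM in samples 1 to 10. Samples 4 and 7, both Type-1, were high and the other 8 were under 1. Rpl13a, a large-subunit protein also known for silencing inflammatory messages, was at 4.20, 0.0130, 0, 4.82, 0.271, 2.19, 0.203, 0.962, 3.54 and 0.140 FPKM, with no pattern by type. Rpl24, at the face where the subunits meet, was at 0.817, 1.74, 2.49, 4.42, 1.06, 0.678, 0.605, 1.32, 1.23 and 0.573 FPKM. The next lowest by mean log2 level were Rpl22 (3.85) and Rps15a (3.93), far above Rpl24 (1.21).

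These 3 genes shared an annotation feature that the selection did not use. In GENCODE M21 (GRCm38), 53.6% of the bases of the principal transcript of Rps10 (chromosome 17, 27630418 to 27636669, minus strand) also belonged to exons of another gene on the same strand, 59.3% for Rpl13a (chromosome 7, 45125558 to 45128761, minus strand) and 71.5% for Rpl24 (chromosome 16, 55966275 to 55971435, plus strand). No other canonical gene had over 50% shared in this way, and the next was Rpl19 with 10.7%. The gene that shared exons with Rpl13a, Gm45713, and the one with Rpl24, Gm28037, had 0 counts in all 10 libraries. Rpl35 (68.3% shared), Rpl23a (55.4%) and Rps25 (52.2%) shared over 50% of these bases with genes on the opposite strand. Their mean log2(FPKM + 1) levels were 6.06, 6.23 and 5.80. Outside the canonical genes, Rpl36al (63.1% shared on the same strand) had 0 to 8 counts per neuron. Rps12l1, with 100% of its exon bases shared with Gm44510 on a strand not determined here, had 0 counts. The sources used here do not say whether the counting program used the strand. They also do not say how it treated a fragment that lies in exons of more than 1 gene. The part of these settings in the low values was not tested. The levels of Rps10, Rpl13a and Rpl24 are therefore uncertain, and without these 3 genes the mean number under 1 FPKM was 0.9 per neuron in place of 2.7, an alternative added after seeing the data.

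**Figure D3:**
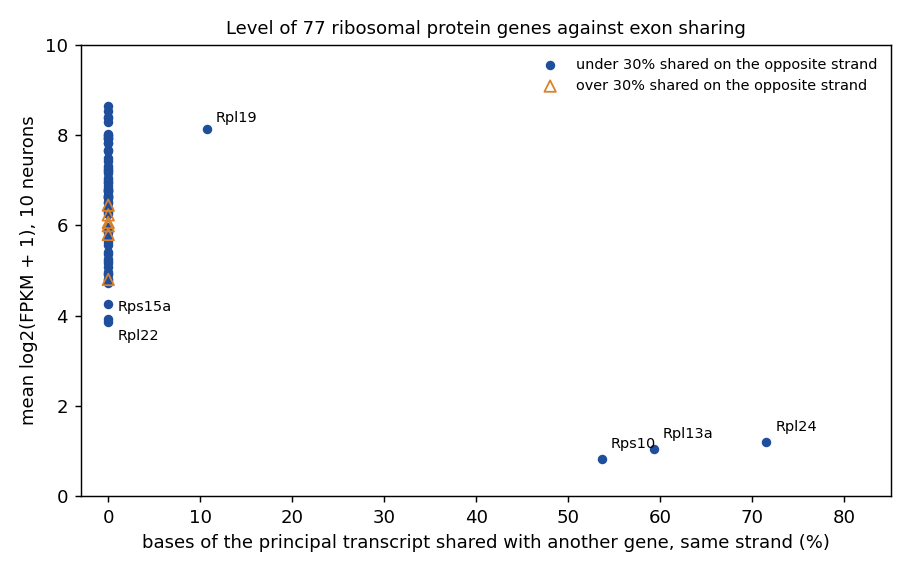
Mean log2(FPKM + 1) over the 10 neurons of each canonical gene against the percent of its principal transcript that shares bases with exons of another gene on the same strand; open triangles mark genes with over 30% shared on the opposite strand. Rps10, Rpl13a and Rpl24 lie alone at the lower right, at 53.6 to 71.5% shared and mean levels of 0.83 to 1.21, and the triangles lie among the rest.

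Processed copies drew fragments as well. The 319 pseudogene entries named after ribosomal proteins (-ps), which are not members, held 0.0624 to 0.971% of all fragments, most in sample 4. Of these, 316 belonged to 61 canonical parents, and for 17 parents they held over 10% of the parent's counts over the 10 neurons. The highest ratios were 383% for Rps10, 283% for Rpl35a and 119% for Rps2. Fragments of a gene and its copies cannot be told apart where their sequences are equal, so the levels of these parents are uncertain.

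Of the 17 members outside the canonical set, 13 had a fragment in at least 1 neuron. Rpl10l, Rpl39l, Rps12l1 and Rps23rg1 had 0 counts in all 10. Rps4l, Rps3a2, Rps3a3, Rps27l, Rps27rt, Rpl22l1, Rpl7l1, Rpl37rt, Rpl6l and Rps19bp1 had fragments in all 10 neurons, Rpl36al in 7, Rpl32l in 6 and Rpl3l in 2. Rpl3l, the muscle form of Rpl3, was at 17.0 FPKM in sample 7, at 0.0285 in sample 1 and at 0 in the other 8. Rps19bp1, whose product binds Rps19, was at 0.0432 FPKM in sample 1 and at 15.2 to 61.3 elsewhere.

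How much of a copy's count can be its own depends on how far its sequence differs from the parent, which is why short stretches of 3 pairs are shown. Each line is a stretch of 60 bases of the annotated transcript in M21, and capitals mark bases that differ between the pair. Each was picked as the gap-free stretch of the parent's coding sequence with the most such bases, so it is no average of the pair.
Rps3a1 (transcript bases 334 to 393): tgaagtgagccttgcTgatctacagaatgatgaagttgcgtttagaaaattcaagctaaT
Rps3a3 (transcript bases 201 to 260): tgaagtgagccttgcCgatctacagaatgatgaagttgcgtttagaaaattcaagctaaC
Rps4x (transcript bases 155 to 214): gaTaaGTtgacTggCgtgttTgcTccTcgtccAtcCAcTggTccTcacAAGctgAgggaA
Rps4l (transcript bases 115 to 174): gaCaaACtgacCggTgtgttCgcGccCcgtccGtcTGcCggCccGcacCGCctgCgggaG
Rps27 (transcript bases 37 to 96): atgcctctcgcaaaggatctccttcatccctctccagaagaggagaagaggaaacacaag
Rps27rt (transcript bases 33 to 92): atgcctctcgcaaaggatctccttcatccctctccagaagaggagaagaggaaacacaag

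Rps27rt did not differ from Rps27 over 341 aligned bases, and its counts were 1.67 to 2.94% of those of Rps27 in every neuron. Rpl37rt was 99.7% identical to Rpl37 over 344 aligned bases of the 682 in its transcript, and held 1.87 to 8.48% of its parent's counts. Rpl6l, 98.7% identical to Rpl6 over all 871 bases of its transcript, held 0.700 to 3.70% of its parent's counts.

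Rps3a3, a processed pseudogene by M21 on chromosome 13 (108670603 to 108671397, plus strand), was 98.9% identical to Rps3a1 over its whole length. Its counts were 8.39% of those of Rps3a1 in sample 1, 16.1% in sample 3, 24.5% in sample 5 and 25.2% in sample 8, the 4 neurons at P0. They were 0.133 to 0.444% in the 6 neurons at P1 to P3. In FPKM it stood at 46.3 to 217 at P0 and at 0.289 to 7.61 later, so the ages did not overlap. Across the 10405 genes, FPKM was higher at P0 without overlap for 0.259% and lower for 0.423%. Of the 88 members among those genes, Rps3a3 was the only one higher and 0 were lower, a single gene from which nothing is read about the set. The P0 neurons were of both lines and of all 3 types, and animals or litters may differ between the ages in the same way, which the labels do not give. Rps3a2, a second processed pseudogene that was 99.5% identical to Rps3a1, held 14.7 to 29.3% of the parent's counts at P0 and 5.18 to 13.7% later, but its FPKM overlapped, at 55.6 to 317 and 11.3 to 236.

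Rps4l, by M21 a transcribed processed pseudogene on chromosome 6, was 79.7% identical to Rps4x, the X-linked form, over the aligned part. Its level was 124, 0.0877, 67.7, 262, 153, 87.8, 231, 26.7, 118 and 212 FPKM in samples 1 to 10. Sample 2 held 3 fragments, while all other neurons were at 26.7 FPKM or more. The pair went opposite ways in samples 1 and 2. In sample 1 Rps4x had 29 fragments and Rps4l 2504, and in sample 2 Rps4x had 10342 and Rps4l 3. In the other 8 neurons Rps4l counts were 16.5 to 155% of those of Rps4x.

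Paralogs with diverged sequences also differed between neurons. Rps27l (77.4% identical to Rps27), which is induced by p53, was at 0.286 FPKM in sample 7 and at 157 in sample 4, with 124 in sample 1. Its counts were 0.382% of those of Rps27 in sample 7 and 134% in sample 1. Rpl22l1 (74.7% identical to Rpl22), which can take the place of Rpl22, kept to 16.0 to 63.3 FPKM while Rpl22 ran from 0.0545 to 84.1. Rpl7l1, a paralog of Rpl7, was at 0.0803 FPKM in sample 1 and 0.00919 in sample 3 and at 8.00 to 68.0 elsewhere, while Rpl7 was at 76.2 FPKM or more in all neurons.

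**Figure D4:**
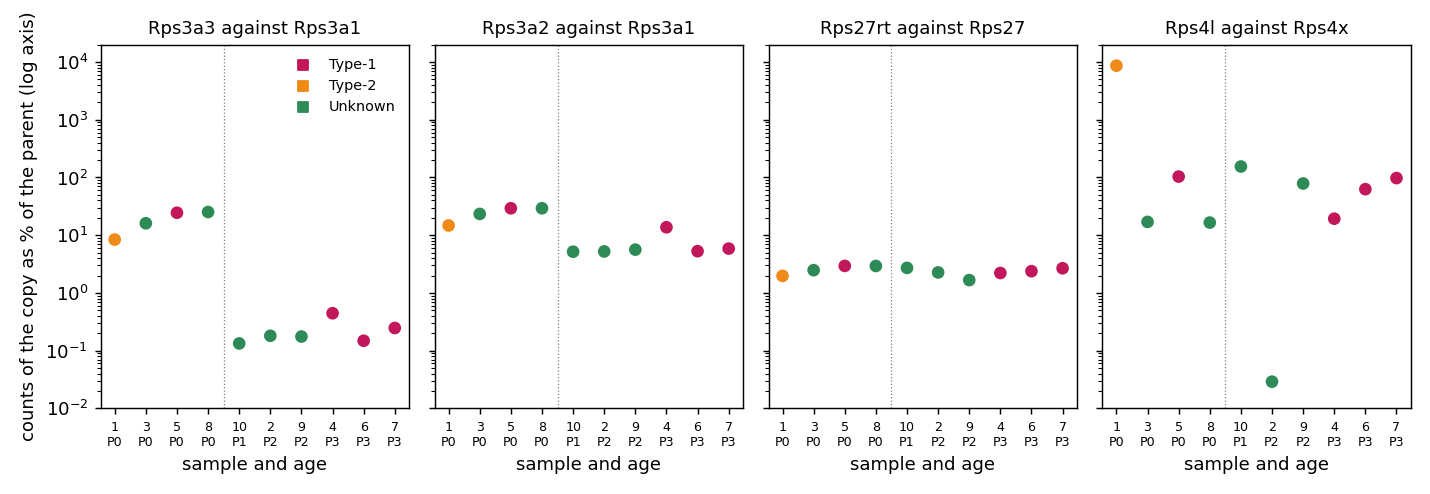
Counts of 4 copies as a percent of the counts of their parent gene in each neuron, on a shared log axis, with neurons ordered by age and coloured by type; the dotted line separates P0 from P1 to P3. Rps3a3 falls from 8.39 to 25.2% at P0 to 0.444% or less, Rps27rt stays between 1.67 and 2.94%, and Rps4l has its extremes in samples 1 and 2.

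The comparison of types asks whether neurons labelled Type-1 differ from those labelled Unknown, and the single Type-2 neuron entered no test. By edgeR's quasi-likelihood test with Benjamini-Hochberg adjustment over all 9889 genes tested, 0 of 87 members tested passed an adjusted p of 0.05, against 0% of all genes. Without adjustment 1 member had p under 0.05, against 2.32% of all genes, 1.14% higher and 1.17% lower in Type-1. It was Rps10, 5.03 higher in Type-1 on the log2 scale (SE 2.18, edgeR adjusted p = 1.00), and it was high in 2 of 4 Type-1 neurons. Without sample 4 its log2 fold change was 3.12 (SE 1.80, edgeR adjusted p = 1.00), and it no longer had an unadjusted p under 0.05. The DESeq2 test called 5.98% of its genes and Rps10 alone of the members (log2 fold change 5.35, DESeq2 adjusted p = 0.0290). Its exon sharing, given above, leaves its level uncertain.

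The direction of the members between types hung on sample 4. With all neurons the median log2 fold change of the 87 members was 0.50, with 73 above 0, and over all genes it was -0.08, with 52.7% below 0. Without sample 4 the members' median was -1.35, with 85 below 0, and over all genes it was -0.14, with 54.2% below 0. In that fit 20 members had an unadjusted edgeR p under 0.05, all lower in Type-1, against 5.14% of all genes, and 0 passed after adjustment. Rplp0, among the 14 members below 0 with all neurons, did not turn but moved further below 0 without sample 4. The Type-1 neurons 4, 5, 6 and 7 had 1248, 154, 223 and 191 FPKM, and the Unknown neurons 2, 3, 8, 9 and 10 had 699.6, 1239.5, 468, 187 and 219. Neuron 4 lay above the Unknown range, neurons 6 and 7 at its lower end and neuron 5 below it. The log2 fold change of Rplp0 was -0.29 with sample 4 and -1.97 without it (SE 0.71, edgeR adjusted p = 0.819). The remaining Type-1 neurons were all Dbx1-derived and the Unknown ones all WT, so in that fit type and line cannot be told apart.

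The comparison of lines set the 4 Dbx1-derived neurons against the 6 WT neurons. By edgeR 0 of 87 members passed an adjusted p of 0.05, against 0% of the 10198 genes tested. Without adjustment 31 members had p under 0.05, all lower in Dbx1-derived neurons. Of all genes 6.22% did, 3.92% lower and 2.29% higher. Leaving out each neuron in turn gave 11 such members without sample 4 to 43 without sample 10. These 2 fits had 467 of 9725 and 661 of 9482 genes with p under 0.05. The number was 15, 14 and 12 without samples 5, 6 and 7, against 968 of 11057, 759 of 11080 and 755 of 11074 genes. With all neurons it was 20 with DESeq2 size factors (851 of 10198 genes) and 40 with upper-quartile scaling (590 of 10198 genes). The log2 fold change was below 0 for 86 of 87 members, against 52.6% of all genes, with a median of -1.92 against -0.11. The DESeq2 test called 10.1% of its genes and 2 members, Rpl27a (log2 fold change -3.77, DESeq2 adjusted p = 0.0331) and Rpl14 (log2 fold change -3.07, DESeq2 adjusted p = 0.0466). Rpl27a was at 0.404, 18.7, 25.9 and 14.3 FPKM in Dbx1-derived neurons 1, 5, 6 and 7 and at 63.4, 107, 291, 50.6, 17.3 and 27.2 in WT neurons 2, 3, 4, 8, 9 and 10, so the ranges overlapped. Its log2 fold change in edgeR was -3.21 (SE 1.23, edgeR adjusted p = 0.561), and -2.21 without sample 4, where it no longer had an unadjusted p under 0.05. In edgeR Rpl14 had a log2 fold change of -2.74 (SE 0.88, edgeR adjusted p = 0.413). It was at 14.6, 83.6, 86.0 and 78.8 FPKM in Dbx1-derived neurons, and 59.6 to 666 in WT ones, which overlapped through sample 10.

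Without sample 4 the line difference was smaller. The members' median was -1.15, 82 were below 0, and 11 had an unadjusted edgeR p under 0.05, where 4.8% of all genes did. Samples 2, 3, 4 and 8, the libraries with the highest astrocyte sums, were all WT, and samples 9 and 10, also WT, had a ribosomal protein share of 1.13 and 0.904%, like the Dbx1-derived neurons at 0.977 to 1.28%. The parts of line and of astrocyte marker level were not tested apart.

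Other genes of translation did not pass either. The 6 elongation factors, 17 initiation factors and 13 ribosome biogenesis genes were all tested. Of these, 0 passed an adjusted edgeR p of 0.05 between types or between lines, against 0% of all genes in both. Without adjustment, at p under 0.05, 0 did between types, against 2.32% of all genes. Between lines 1 elongation factor and 2 initiation factors did, where 6.22% of all genes did. The median log2 fold change in Dbx1-derived against WT neurons was -0.43 for elongation factors, -0.33 for initiation factors and -1.09 for biogenesis genes, against -0.11 for all genes. Between Type-1 and Unknown these medians were -0.02, 0.12 and 0.36, against -0.08.

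The summed FPKM of these factors was 604 to 2391 for elongation factors and 819 to 2129 for initiation factors, whose highest libraries were 3.96 and 2.60 times their lowest. For biogenesis genes it was 216 to 449 (2.08 times). For the canonical ribosomal proteins the highest was 8.82 times the lowest, and 4.34 times without sample 4. Without it the initiation factors spanned 1.82 times, while the elongation factors and biogenesis genes kept the values above. Eef1a1, which brings charged tRNA to the ribosome and led the elongation factors, was at 449, 946, 1929, 1552, 821, 627, 545, 1284, 913 and 332 FPKM in samples 1 to 10. Eif1, which guards the choice of the start codon, was at 20.5 FPKM in sample 1 and 231 to 873 elsewhere. Npm1, a nucleolar chaperone of ribosome assembly, ran from 34.2 FPKM in sample 1 to 305 in sample 3.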

How the data were processed

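RNA of 10 single neurons was amplified with SMART-Seq v4, fragmented with Nextera and sequenced in pairs. The authors aligned reads to GRCm38 with STAR 2.7.7a, after FastQC 0.11.8, and counted fragments per gene with featureCounts. They deposited raw counts, gene lengths in bases, and FPKM values, which differed from counts per length and counted total by at most 5.09e-11. Library totals were 21392146 to 36629393, and the options for fragments in several places or genes were not given in the sources used here.

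From these files shares, medians, evenness and dropout were computed in Python 3.11.15, and log2 values with a pseudocount of 1. Groups came from the labels. Counts of all genes passing filterByExpr were tested with edgeR 4.0.16 (TMM, robust quasi-likelihood, Benjamini-Hochberg) and, as an alternative, DESeq2 1.42.0. SEs are the log2 fold change over the square root of F. The scripts were tested on simulated data. Positions, transcripts and exon sharing came from GENCODE M21, starts from RefSeq. Copies were aligned locally with Biopython 1.88.

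Members and lists were chosen with earlier results of these data known. Named were the 5 canonical genes with the highest, lowest, most and least variable levels, those under 1 FPKM in at least 3 neurons, each library's leader, members called in a comparison, the stalk, 5S and tunnel-exit lists, paralog pairs, each translation list's leader and all non-canonical members. Genes low in sample 1, exon sharing, ages of the Rps3a copies and close copies were picked after their values were seen. Alternatives were other scalings, filters, gene sets, pseudocounts and libraries left out. Some genes are not reported here.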

Additional observations from a re-analysis of the deposited data

Results flagged for a closer look

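Samples standing apart from the others of a group were sought by Dixon's criterion in 35 groups of values, of which 13 stood out, while chance gives about 1 in 20. That rate is for independent groups, whereas these groups share neurons and related measures, so the 13 cannot be weighed against it. The ribosomal protein share of sample 4 (7.47%) stood apart both from the other Type-1 neurons, where the nearest was 1.07%, and from all neurons, where it was 3.86%. The median canonical level of sample 4 (419 FPKM) did so too, with the nearest at 61.3 among Type-1 neurons and 205 among all. The pseudogene share of sample 4 (0.971%) was likewise apart, with the nearest at 0.0680% in Type-1 and 0.445% in all. Gene by gene, 66 of the 77 canonical genes had sample 4 apart from and above the other Type-1 neurons, where 8.62% of the 10405 genes detected in 7 or more neurons did.

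Sample 1 stood apart from the Dbx1-derived neurons and from all neurons in evenness (0.863, nearest 0.924 and 0.907), in the number of canonical genes under 1 FPKM (10, nearest 3) and in the share of its leading gene (8.71%, nearest 5.73%). Sample 5 had a median canonical level of 50.1 FPKM, below the other Dbx1-derived neurons, of which the nearest was at 59.9. No explanation was tested for any of these.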

How the results depend on the processing

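No paired analysis was possible because the labels number the neurons singly and name no animal, so no number pairs neurons across groups. The mean log2(FPKM + 1) of the canonical median was 6.54, and it became 7.77 with TPM and 7.67 with principal transcript lengths. Evenness of 0.917 became 0.541 as 1 minus the Gini coefficient, 0.892 over all 94 members and 0.942 with principal transcript lengths. The mean number of genes under 1 FPKM, 2.7, became 5 with a limit of 10 FPKM, 10.7 over all members, and 0.9 without Rps10, Rpl13a and Rpl24. Each alternative changed the unit, length, index, limit or gene set, and what moved each value was not tested. Principal lengths and the removal of the 3 genes were added after seeing the data. DESeq2 called 1 member between types and 2 between lines, where edgeR called 0, and the cause was not tested. Upper-quartile scaling gave members' median log2 fold changes of 1.20 between types, where it moved the median of all genes from -0.08 to 0.21, and -2.10 between lines. The median log2 fold change of members between Type-1 and Unknown turned to -1.35 without sample 4, and leaving out each neuron in turn gave -1.35 to 0.99. Leaving out each neuron gave a mean share of 1.63 to 2.36%, a level of 6.29 to 6.63, an evenness of 0.915 to 0.923 and 1.89 to 3 genes under 1 FPKM, the lowest of these without sample 1. The number of members called by edgeR was 0 in all of these fits. One neuron per library, animals not named, unequal glial marker levels and fragments shared between genes and copies limit what these values can show.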
